A study of Caenorhabditis elegans with 2 samples.

Results

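The genes described here are the small nuclear RNA (snRNA) genes of Caenorhabditis elegans, with the spliced leader genes as a subgroup, and the measurement is where the transcription factor EGL-43 was recovered on chromatin in relation to them. Members were all genes of biotype snRNA on the nuclear chromosomes of WBcel235 in the Ensembl annotation, 129 of 46890 nuclear genes. They include 30 spliced leader genes, of which 12 are sls-1 genes and 18 are sls-2 genes, and 99 other snRNA genes. ChIP-seq, the sequencing of DNA recovered with a precipitated chromatin protein, was done on whole L4 larvae aged 49 hours, grown from L1 larvae starved after bleaching. The worms were of strain RW12181, genotype st12181[egl-43::TY1::EGFP::3xFLAG] II, in which a CRISPR insertion tags egl-43 at its own locus with a TY1 epitope, EGFP and 3xFLAG. EGL-43 is a zinc finger protein related to mammalian EVI1. The precipitating antibody recognised GFP, chromatin was sheared by sonication, and the sex of the worms was not collected. There were 2 biological replicates of 1 group. The authors' peaks were made against a control file, per the file headers, which is not analysed here, and no untagged worms were used. Without untagged worms, recovery through EGL-43 and recovery in any GFP precipitation cannot be told apart at these genes. Whole worms also mix all cell types, so a strong site in few cells and a weak site in many cells cannot be told apart.

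Most snRNAs are the RNA cores of the spliceosome, which removes introns from messenger RNA precursors. Nematodes also join a short leader from a spliced leader RNA to the 5′ ends of many messenger RNAs by trans-splicing. SL1 RNA, made from the sls-1 genes, serves the first gene of an operon and many genes outside operons, and SL2 RNAs, made from the sls-2 genes, serve downstream genes of operons. SmY RNAs, made from the smy genes, are small RNAs of nematodes that associate with the proteins of SL trans-splicing. In animals, snRNA genes have compact promoters with a proximal sequence element upstream of the start, bound by the complex SNAPc, and are read by RNA polymerase II or, for U6-type genes, RNA polymerase III. The annotation used here names the sls-1, sls-2 and smy genes, but gives no U1 to U6 class for the others, so those were grouped by sequence. Genes joined by at least 70% identity over their length form a family, which is called by one of its members.

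Both kinds of spliced leader gene are shown to fix what the names stand for. The capitals mark the 22 bases that end at the first GT splice donor, the leader that is transferred. The sls-1.9 gene lies at V:17122650-17122747 on the minus strand and the sls-2.2 gene at II:5543598-5543707 on the plus strand, both between protein-coding genes. The sequences are from RefSeq, build WBcel235, and run 5′ to 3′.
sls-1.9: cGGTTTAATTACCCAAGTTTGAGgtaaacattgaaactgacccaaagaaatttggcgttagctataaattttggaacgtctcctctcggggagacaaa
sls-2.2: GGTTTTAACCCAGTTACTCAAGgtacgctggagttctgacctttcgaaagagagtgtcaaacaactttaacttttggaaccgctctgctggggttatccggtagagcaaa
The leader of sls-1.9 was found in 10 of the 12 sls-1 genes and that of sls-2.2 in 4 of the 18 sls-2 genes.

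The 80 bases before the gene start are shown for copies with a peak and for copies of the same family without one, because some copies of nearly the same gene had a peak and others had none. Capitals mark the words AACCCG and TGTCGG on the strand of the gene, the most frequent words of 6 letters in the 100 bases upstream of the 129 genes. The first 4 pairs were picked, with the values known, for holding the same words, so their likeness is no finding. Each gives the copy with a peak in the series thresholded list before a copy with none, and the SmY genes have no copy with a peak.
sls-2.16 (peak), III:7141311-7141390, plus strand: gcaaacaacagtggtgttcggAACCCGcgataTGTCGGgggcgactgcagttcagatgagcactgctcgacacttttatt
sls-2.17 (no peak), IV:5317369-5317448, minus strand: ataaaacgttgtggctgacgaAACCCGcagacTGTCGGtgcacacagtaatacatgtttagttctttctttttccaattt
sup-6 (peak), II:12944968-12945047, minus strand: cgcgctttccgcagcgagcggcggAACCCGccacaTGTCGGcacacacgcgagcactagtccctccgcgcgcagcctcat
T08G5.11 (no peak), V:14028636-14028715, minus strand: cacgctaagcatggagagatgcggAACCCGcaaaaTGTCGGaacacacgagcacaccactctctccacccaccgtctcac
C52E4.8 (peak), V:11980038-11980117, plus strand: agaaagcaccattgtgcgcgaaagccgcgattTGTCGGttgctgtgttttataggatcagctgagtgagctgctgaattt
T11F9.16 (no peak), V:11488435-11488514, minus strand: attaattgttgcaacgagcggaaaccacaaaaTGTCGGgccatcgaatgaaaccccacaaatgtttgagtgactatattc
C28A5.7 (peak), III:4426956-4427035, minus strand: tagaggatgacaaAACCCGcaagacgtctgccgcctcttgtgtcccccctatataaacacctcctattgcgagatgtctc
Y17G9A.90 (no peak), IV:4866731-4866810, plus strand: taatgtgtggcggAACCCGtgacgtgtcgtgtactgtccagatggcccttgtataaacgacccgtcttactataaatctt
smy-1 (no peak), IV:9511840-9511919, minus strand: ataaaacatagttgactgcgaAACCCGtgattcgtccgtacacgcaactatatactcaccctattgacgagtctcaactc
smy-9 (no peak), IV:13602122-13602201, plus strand: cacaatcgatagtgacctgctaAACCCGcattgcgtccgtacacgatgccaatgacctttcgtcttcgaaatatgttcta
Other copies differed. At least 1 of the words was found in 7 of the 9 SL2 genes with a peak in the thresholded list and in all 5 with none in either list, and in 2 of 5 and 4 of 19 genes of the R07E5.16 family. sls-2.2, with one of the strongest peaks at these genes, and W05B2.8, with the strongest, had neither exact word before the start.
sls-2.2 (peak), II:5543518-5543597, plus strand: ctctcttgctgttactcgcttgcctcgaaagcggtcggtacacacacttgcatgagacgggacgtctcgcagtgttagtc
W05B2.8 (peak), III:10989599-10989678, plus strand: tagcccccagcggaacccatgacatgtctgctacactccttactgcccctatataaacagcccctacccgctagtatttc

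On the strand of the gene, AACCCG was present in the upstream 100 bases of 43 of the 129 snRNA genes (33.3%), against 0.881% of other nuclear genes, and TGTCGG in 42 (32.6%), against 1.04%. Since the words were picked for their frequency in these genes, and the copies of a family are not independent, the shares are a description. On either strand the shares were 34.9% and 32.6% of snRNA genes, against 1.62% and 1.9% of other nuclear genes. AACCCG started a median of 58 bases before the gene and TGTCGG a median of 47, and in all 13 genes with both the second word started 11 bases after the first. snoRNA genes held AACCCG in 7.80% and TGTCGG in 9.25% of cases, tRNA genes in 0.817% and 1.80%. Of the 33 genes with a summit in the series thresholded list 26 had at least 1 of the words, against 16 of the 24 with a summit in the ranked list alone and 30 of the 72 with none in either. Both words were present in 5, 2 and 6 of these genes. Overlapping genes were counted apart here: sup-39 and mir-1831 share the same AACCCG, and so do T27E4.12 and T27E4.22. The groups differ in family, as the 72 genes hold 10 SL1 genes, none with either exact word. Within families, at least 1 word was in 7 of 9 SL2 genes in the thresholded list and 5 of 5 with no summit. The C47F8.9 family gave 3 of 4 and 3 of 3, and the F07C6.5 family 3 of 3 and 6 of 6. The sup-39 family gave 9 of 9 and 3 of 4, and the T11F9.15 family 1 of 1 and 2 of 4. The R07E5.16 family gave 2 of 5 and 4 of 19. Within 50 bp of the summit itself, on either strand, either word was found at 7 of the 33 peaks near snRNA genes (21.2%), against 10.8% of the other 3113 peaks. Since the words were picked from the sequence before these same genes, a higher share at their peaks is in part set by that choice and is no finding.

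A peak here is an entry of the authors' lists, an interval called in the ChIP-seq signal with a summit, the base where the signal was highest. A pair of entries can share 1 interval. The irreproducible discovery rate (IDR) score orders peaks by how well they agree between data sets, and the signal value is the authors' strength of a peak, which is compared here only within a list. The series thresholded list keeps 3146 of the peaks of a ranked list of 65641. Of the 129 snRNA genes 33 had a summit of the thresholded list within 200 bp (25.6%), against 6.45% of other nuclear genes in the same list. That background holds 15363 piRNA genes, which are short and clustered. Without them the background was 9.57%. With the window set on the 5′ end of the gene alone, which gives genes of any length a window of the same size, the shares were 25.6% of snRNA genes and 3.24% of other nuclear genes. The same measure gave 55.6% for tRNA genes, 21.1% for snoRNA genes, 4.6% for microRNA genes and 2.10% for protein-coding genes. In the thresholded list the snRNA genes thus stood near snoRNA genes, below tRNA genes and above microRNA and protein-coding genes, as a description without a test.

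In the ranked list, which has no reproducibility threshold, 57 snRNA genes had a summit within 200 bp (44.2%), against 34.4% of other nuclear genes. Without piRNA genes that background was 50.6% and thus above the share of snRNA genes. Measured at the 5′ end, the ranked shares were 41.9% of snRNA genes and 19.7% of other nuclear genes. The same measure gave 65.0% for tRNA genes, 53.2% for snoRNA genes, 35.6% for microRNA genes and 24.9% for protein-coding genes. In this list the snRNA genes thus stood below snoRNA genes. With the window around the whole gene, 61.6% of snoRNA genes and 54.5% of protein-coding genes had a ranked summit, both above snRNA genes. The replicate 1 thresholded list had a summit at 23 snRNA genes (17.8%), against 3.89% of other nuclear genes, and the replicate 2 thresholded list at 26 (20.2%), also against 3.89%. In the ranked lists of the replicates the counts were 63 (48.8%), against 38.0%, and 58 (45.0%), against 35.7%.

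**Figure D1:**
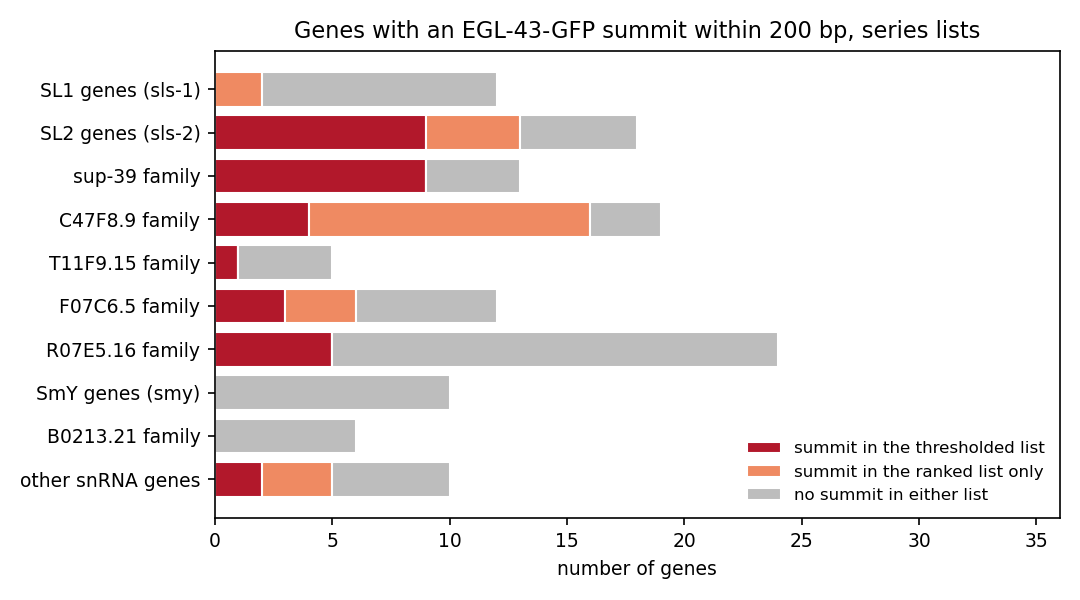
Number of snRNA genes (x axis) in each family (y axis) with a summit within 200 bp in the series thresholded list, in the series ranked list alone, or in neither. The SL2 genes and the sup-39 family each had 9 genes in the thresholded list, whereas the 10 SmY genes had none in either list.

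The families differed in how many of their copies had a summit. The thresholded list marked 9 of 13 genes of the sup-39 family (69.2%), 9 of 18 SL2 genes (50%), 3 of 12 genes of the F07C6.5 family (25%), 4 of 19 of the C47F8.9 family (21.1%), 5 of 24 of the R07E5.16 family (20.8%) and 1 of 5 of the T11F9.15 family. It marked none of the 12 SL1 genes, none of the 10 SmY genes and none of the 6 genes of the B0213.21 family. The background was 6.45% of other nuclear genes, or 9.57% without piRNA genes. The marked families stood above it, on counts of 1 to 9 genes each, and the families without a marked gene below it. In a small family 1 gene is enough for that, as 1 of 5 gives 20% in the T11F9.15 family, so this comparison is no finding.

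The 33 genes were reached by 33 entries with distinct summits, in 32 intervals. sls-2.4 had a pair of summits in 1 interval and Y47H9A.2 a pair of separate intervals, and 2 peaks were shared by overlapping genes, one by sup-39 and mir-1831 and one by T27E4.12 and T27E4.22. mir-1831 is annotated with biotype snRNA but is 22 bases long and lies inside sup-39. Counted once per overlapping locus, 31 loci of 126 had a summit. The median signal of the 33 peaks was 195, against 139 for the other 3113 peaks, and the signals ran from 25.1 to 759. At or above the list median of 139.6 stood 27 of the 33. Of the 50 strongest peaks of the list 4 were at snRNA genes, and of the 500 strongest 12.

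**Figure D2:**
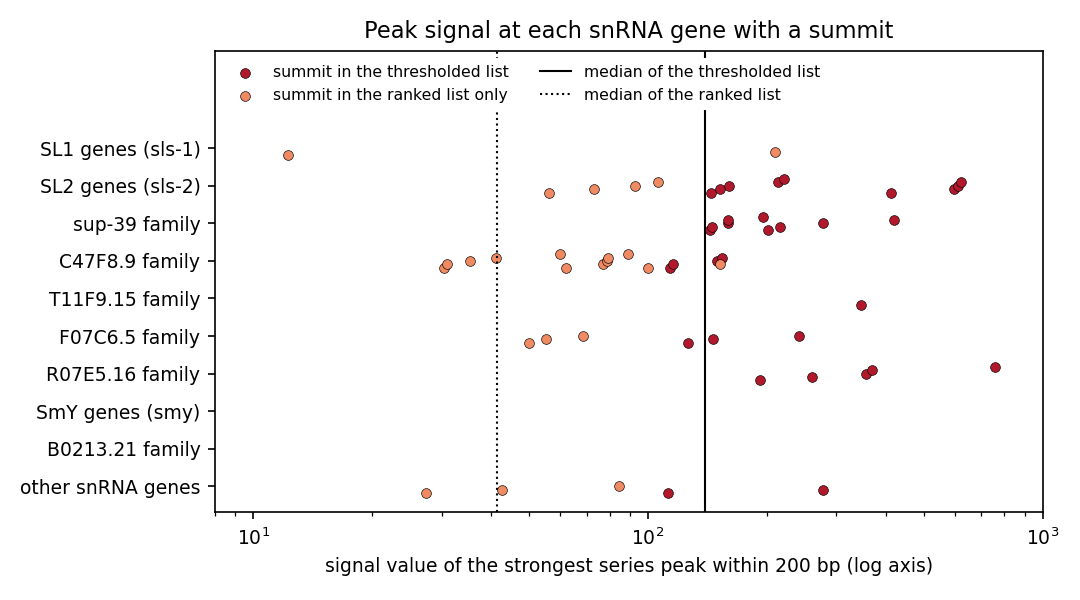
Signal value of the strongest series peak within 200 bp of each snRNA gene (x axis, log scale) by family (y axis), for genes with a summit in the thresholded list or in the ranked list alone, with the list medians as lines. The strongest peaks belong to the R07E5.16 family and to SL2 genes, and the ranked peaks of the C47F8.9 family spread from 30.4 to 154.

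The SL2 genes carried 3 of the 4 strongest peaks. sls-2.4 had a series signal of 620 (rank 33), with 294.7 in replicate 1 and 325.0 in replicate 2. sls-2.2 had 609 (rank 36), with 307 and 319, and sls-2.1 had 598 (rank 39), with 312 and 285. Replicate values of each gene lay close to each other, and these 3 genes stood above all other members but W05B2.8. sls-2.9 followed at 413.5 (rank 133), with 173 and 235, but its summit was 135 bp before the gene start and a tRNA gene, M01E5.t1, lay within 200 bp of that summit; which of them the peak belongs to was not tested. The other 5 SL2 genes in the thresholded list were sls-2.15, sls-2.8, sls-2.3, sls-2.5 and sls-2.16, with series signals of 144.8 to 222. A further 4 were in the ranked list alone, sls-2.18 at 106, sls-2.14 at 92.6, sls-2.13 at 73.0 and sls-2.7 at 56.2. The 5 without a series peak were sls-2.6 and 4 of the 5 SL2 genes on chromosome IV, and sls-2.6 had a weak summit in replicate 2 alone, at a signal of 4.16.

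The SL1 genes lie together at V:17118154-17132107, where they alternate with genes for 5S ribosomal RNA, of which the annotation has 13 in that stretch and up to 1000 bp beside it. None had a summit in a thresholded list. In the series ranked list sls-1.9 had one with a signal of 210 and the highest score of 1000, with 88.1 in replicate 1 and 141 in replicate 2, and sls-1.12 had one with a signal of 12.2. The summit at sls-1.9 lay 175 bp before the gene start, and the 5S gene rrn-4.7 is within 200 bp of the gene. Whether the peak belongs to sls-1.9 or to rrn-4.7 was not tested. In all, 7 ranked peaks had a summit in the stretch or within 200 bp of it, of which 6 passed the lowest score of the thresholded list, 830, and were nevertheless absent from it. The stretch is a repeat: the words of 50 bases in and around the SL1 genes occurred once in the genome for 29.4% at sls-1.12, for 0.668% at sls-1.10 and for none at the other 10. A read of 50 bases or fewer from these copies cannot be placed on one of them by its sequence, and the read length is unknown here, so the signal at sls-1.9 cannot be assigned to a single copy.

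The sup-39 family holds 13 genes of 156 to 170 bases with a median identity of 95.2%. sup-39 is known as a gene for U1 snRNA, the RNA that pairs with the 5′ splice site, through a suppressor allele. sup-6, in an intron of F58G1.7, had a series signal of 420 (rank 127), with 197 in replicate 1 and 223 in replicate 2. sup-39 had 277 (rank 366), with 109.8 and 167.5, and H27M09.6 had 216 (rank 609), with 107 and 115. The other 6 genes, F08H9.11, F08H9.10, T27E4.12, T27E4.22, T27E4.10 and T27E4.11, had signals of 143 to 201. For 3 of them the nearest start of a protein-coding gene is that of a small heat shock gene, hsp-16.20 at 14 bp from the start of F08H9.10, hsp-16.11 at 799 bp from T27E4.10 and hsp-16.1 at 761 bp from T27E4.11. The part of those promoters in the peaks was not tested. The 4 genes without a summit were C27H5.11, T08G5.11, F40G12.13 and F40G12.14, and they had none in the ranked lists of either replicate.

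The C47F8.9 family holds 19 genes of 185 to 187 bases with a median identity of 98.9%. It had the lowest median signal in the thresholded list of the marked families, 116, and the highest share of genes in the ranked list, 84.2%. In numbers, 4 genes were in the thresholded list and 16 in the ranked list, where the signals of those 16 genes ran from 30.4 to 154. Y57G11C.35 had 154 (rank 1226), with 104.5 in replicate 1 and 53.7 in replicate 2. Y54G9A.8 had 149.5, with 72.8 and 74.8, Y47H9A.2 had 116, with 50.3 and 65.4, and R05D7.6 had 114, with 66.0 and 64.9. The replicate values of R05D7.6 come from summits that lay apart, 136 bp after the start in replicate 1 and 53 bp before it in replicate 2. F08G2.10 had a signal of 153 in the series ranked list, above 3 of these 4, without being in the thresholded list. The count rested on the list: the replicate 1 thresholded list held 2 of these genes, the replicate 2 thresholded list none, and the conservative list 5. F15H9.5 and F15H9.6 had no summit and no unique word of 50 bases.

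In the F07C6.5 family, 12 genes of 117 to 126 bases of which 11 lie on chromosome IV, 3 were in the thresholded list. F38E11.10 had a signal of 242 (rank 491), with 131 in replicate 1 and 115 in replicate 2, F32B5.9 had 147, with 72.8 and 83.7, and Y69A2AR.36 had 126, with 53.6 and 77.0. Only F38E11.10 of these was in the replicate 1 thresholded list, while all 3 were in that of replicate 2. All 12 genes carried AACCCG before the start, those without a summit included.

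The T11F9.15 family has 5 nearly identical genes of 142 to 144 bases on chromosome V, with a median identity of 99.0%. C52E4.8 had a signal of 346 (rank 217), with 146 in replicate 1 and 198 in replicate 2. Its start is 395 bp from a start of snr-4, which encodes an Sm core protein that binds snRNAs. T11F9.15 and K03B8.10 had a summit in the replicate 1 ranked list alone, at 45.0 and 37.9, and T11F9.16 and F10D2.13 had none. C52E4.8 and the other 4 genes had similar shares of unique words, 80% and 80.2% to 91.3%.

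The R07E5.16 family, 24 genes of 93 to 108 bases, held the strongest peak of all members. W05B2.8, at III:10989679-10989780 in an intron of dhc-4, had a series signal of 759 (rank 17 of 3146), with 403.5 in replicate 1 and 344 in replicate 2. F54D8.7 had 369 (rank 174), with 183 and 193, and C28A5.7 had 356 (rank 205), with 169.8 and 193. R07E5.16 had 260 (rank 423), with 147 and 112, and K09C6.12 had 193 (rank 767), with 96.9 and 101. All 5 were in both replicate thresholded lists. The other 19 genes had no summit in either series list, so the family had strong peaks or none there. Of these, F54C8.10 and K09B11.11 had one in the replicate 1 ranked list, at 21.6 and 13.3. The 5 genes lie on chromosomes III and V, where 3 other members on III and 1 on V had none, and all 13 members on chromosome IV had none. Shares of unique words overlapped, at 71.3% to 87.2% in the 5 genes with a summit and 54.5% to 100% in the 19 without. The part of repeated sequence in the missing summits was not tested.

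The 10 SmY genes, 77 to 90 bases long, had no summit in any of the 8 lists, ranked lists included. Their loci were unique, with 99.1% to 100% of words found once, and 6 of them carried AACCCG at 56 to 59 bases before the start. None carried TGTCGG. With 1 letter changed, all 10 had AACCCG between 70 and 40 bases before the start, and none had TGTCGG, against 86 of all 129 snRNA genes with the second word in that form. The B0213.21 family, with 6 genes (B0213.21, B0213.22, B0213.23, B0213.24, C41G6.17 and T10H4.16) on chromosome V, likewise had no summit in the series lists although its loci were unique. T10H4.16 had a weak one in the replicate 2 ranked list, at 22.5. Of these 6 genes 5 lay across an exon of a protein-coding gene, in each case a cyp-34A gene.

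The remaining 10 genes joined no family of 5 or more. F56A12.5 was in the thresholded list with a signal of 112.5, with 51.2 in replicate 1 and 46.1 in replicate 2, and mir-1831 was there through the peak of sup-39. F20D1.21, T10H4.17 and W07G1.24 were in the ranked list alone, at 84.6, 42.6 and 27.4. M163.13 was in the replicate 1 thresholded list at 114 and had no summit in any list of replicate 2, the only snRNA gene marked in a replicate thresholded list but not in that of the series. F35B3.10 had a summit in the replicate 1 ranked list alone, at 13.7, and ZK1251.14, C35D6.6 and C35D6.7 had none in any of these lists.

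**Figure D3:**
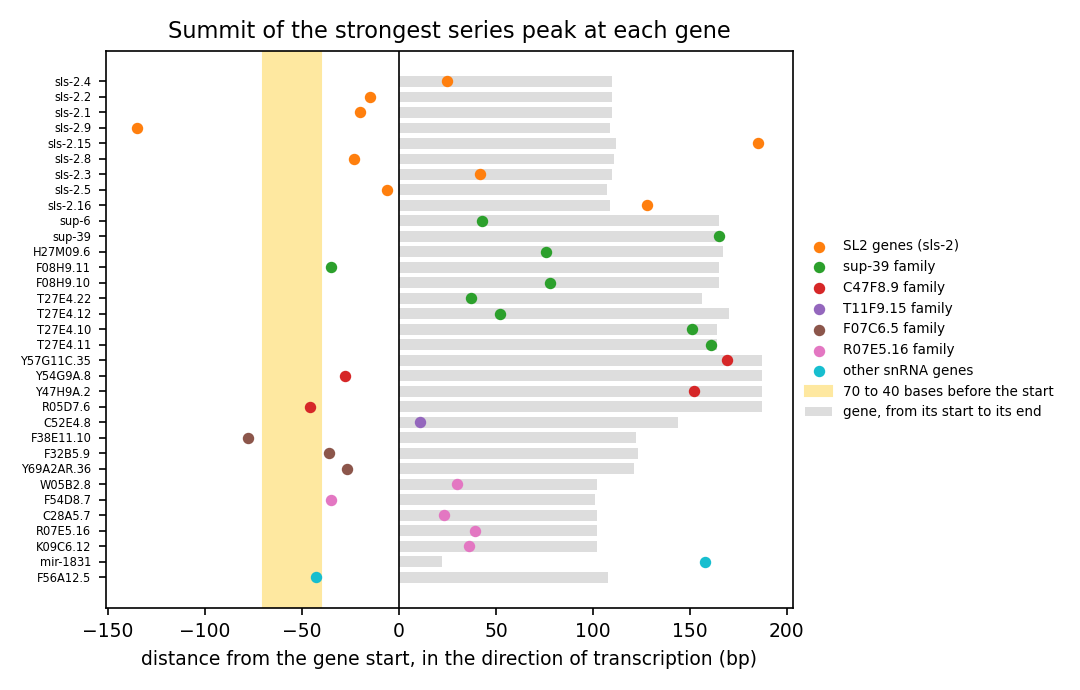
Distance of the summit of the strongest series peak from the gene start (x axis, bp, in the direction of transcription) for the 33 genes in the thresholded list, with the gene as a grey bar and the stretch that holds the upstream words shaded. Summits lie from 135 bp before the start to 185 bp after it, and most lie outside the shaded stretch, which is shorter than most of the genes.

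The summits lay around the gene start and in the gene more often than at the upstream words. The stretch that holds the words, from 70 to 40 bases before the start, is shorter than most of the genes. A lower count there is thus in part set by its width and is no finding. The median summit was 30 bp after the gene start, 13 summits were upstream of the start, 16 inside the gene and 4 past its end, and 24 of the 33 were within 100 bp of the start. The peak interval, with a median width of 330 bp, covered the whole stretch from 70 to 40 bases before the start at 22 of the 33 genes. All intervals of 330 bp had the summit at the same distance from their start. Their cover of the stretch thus follows from the summit position and is no separate finding. In the R07E5.16 family 4 of the 5 summits were inside the gene, at 23 to 39 bp after the start. In the F07C6.5 family all 3 were upstream, at 27 to 78 bp before it. sls-2.15 had its summit 185 bp after the start, past the gene's end, and Y57G11C.35 had it at 169 bp. Few genes were near the limit of 200 bp: the farthest counted were mir-1831 at 137 bp, sls-2.9 at 135 bp and F38E11.10 at 78 bp from the gene, with signals of 277, 413.5 and 242. The nearest not counted were F36A4.23 at 414 bp, W07G1.8 at 553 bp and M163.13 at 620 bp, beside peaks of 114, 146 and 134.

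**Figure D4:**
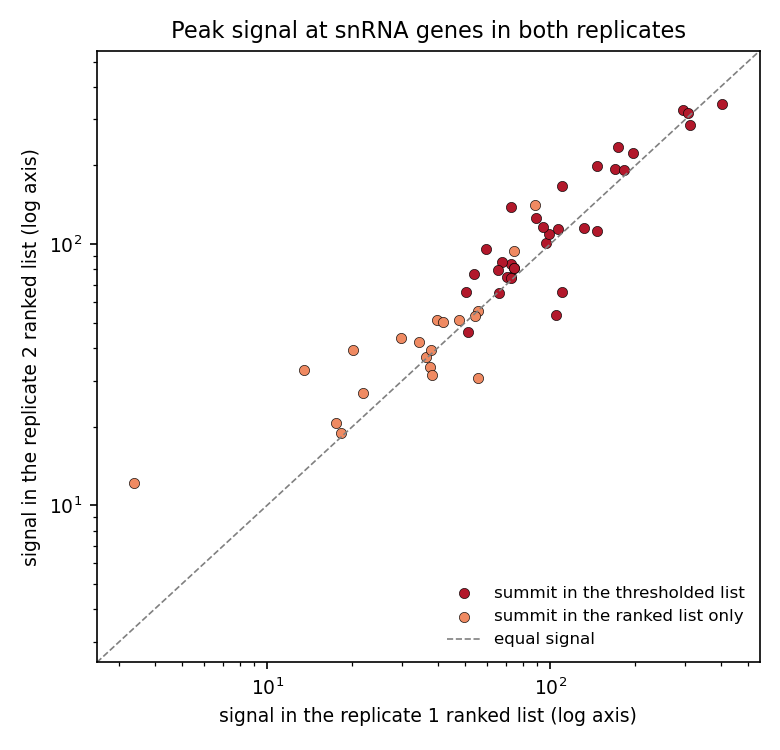
Signal of the strongest peak within 200 bp in the replicate 1 ranked list (x axis, log scale) and in the replicate 2 ranked list (y axis, log scale), for the snRNA genes with a summit in both and in a series list. Genes of the thresholded list lie to the upper right along the line of equal signal, and their ratios of replicate 1 to replicate 2 run from 0.527 to 1.94.

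Since the series list keeps peaks for their agreement between data sets, the likeness of the replicates at these genes is in part set by that choice. Of the 33 genes in the series thresholded list 19 were in both replicate thresholded lists, 10 in one of them and 4 in neither, and all 33 had a summit in both replicate ranked lists. Their signals had a Spearman rho of 0.81 and a Pearson r of 0.892 on log2 values over 33 genes, some of which share a peak. The ratio of replicate 1 to replicate 2 had a median of 0.92. It was lowest at sls-2.8, with 72.8 in replicate 1 and 138 in replicate 2, and highest at Y57G11C.35. The strongest summit was taken in each list apart, so a pair of values need not come from the same summit. At Y57G11C.35 the summits lay 171 bp after the start in replicate 1 and 262 bp after it in replicate 2. With 2 replicates, no error beyond this pair of values can be given for a gene.

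**Figure D5:**
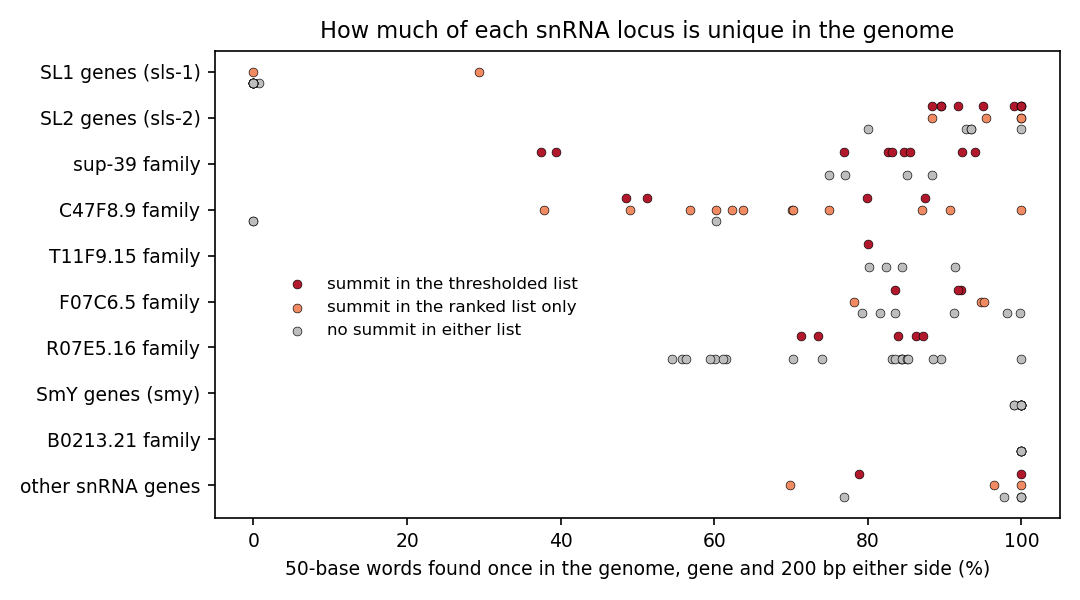
Share of words of 50 bases that occur once in the genome (x axis, %), over each gene and 200 bp either side, by family (y axis), with the genes in the thresholded list, in the ranked list alone and in neither as separate rows of points. The SL1 genes sit between 0 and 29.4%, and the SmY genes, without a summit, at 99.1% or more.

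The SL1 genes had the lowest shares of unique words as a family. The median share of unique words was 86.3% in the 33 genes with a summit in the thresholded list, 76.6% in the 24 with a summit in the ranked list alone and 84.5% in the 72 with none. Of the 33 genes, T27E4.10 and T27E4.11 were the most repeated, at 37.5% and 39.4%, followed by Y47H9A.2 at 48.5%. At genes with at least 50% unique words 30 of 110 had a summit. The part of repeated sequence in the counts was not tested. How the authors treated reads that match several places is not known from the files.

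Location within the genome also moved with the counts. On chromosome IV 3 of 41 snRNA genes had a summit in the thresholded list (7.32%), against 30 of the 88 on the other chromosomes (34.1%). The other chromosomes were not alike, with 37.5% on I, 43.8% on II, 61.5% on III, 22.5% on V and 0 of 3 genes on X. The tRNA genes gave 43.7% on chromosome IV, against 57.9% elsewhere, and other nuclear genes without piRNA genes 8.08%, against 9.85%. On chromosome V the share of these other nuclear genes was lower still, at 6.5%. Chromosome IV holds 7 SmY genes, 13 of the R07E5.16 family and 11 of the F07C6.5 family, so the families are unevenly spread. Within a family, 0 of 5 SL2 genes on chromosome IV were in the thresholded list, against 9 of 13 elsewhere, and 0 of 13 genes of the R07E5.16 family, against 5 of 11 elsewhere. In the F07C6.5 family the counts were 2 of 11 on chromosome IV and 1 of 1 elsewhere, and in the C47F8.9 family 1 of 2 and 3 of 17. Of the 33 genes with a summit 13 lay in an intron of a protein-coding gene, 18 between genes and 2 across an exon, against 35, 31 and 6 of the 72 genes without one. A start of a protein-coding gene was within 500 bp of 8 of the 33 and 12 of the 72.

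The genes that make and handle these RNAs were looked up as well, at the starts of their transcripts. The list held subunits of SNAPc and TFIIIB, the Integrator complex that cuts the 3′ ends of snRNAs, the Sm and LSm proteins that coat them and the SL RNA proteins. It also held gtf-2H1 and sut-2, which are outside these groups. Of the 39 listed genes that were found, 2 had a summit in the thresholded list within 200 bp of a start (5.13%), against 2.63% of protein-coding genes. These were the Integrator subunit gene ints-4, with a signal of 385 (rank 158), and lsm-6, with 185 (rank 825). In the ranked list 17 of the 39 had one (43.6%), against 29.0% of protein-coding genes.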

How the data were processed

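Peak lists of 2 ChIP-seq samples of 1 group were used: a ranked and a thresholded list per replicate and for the series, and the conservative version of the series lists. They are on ce11, per the file headers, the same assembly as WBcel235, and every peak lay within its chromosome. Peaks were derived from alignments and a control file, per the file headers, with the aligner, the peak caller, the treatment of multiply matching reads and the read depth all not given in the sources used here. An IDR score was deposited by the authors for each peak, from 0 to 1000, and the lowest score in the series thresholded list was 830. Each peak's signal value was deposited by the authors without a stated normalisation. The summit offset was deposited with each peak. A further 32 columns of values for single replicates or pseudoreplicates in the ranked lists were not used.

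Genes came from Ensembl release 115. Since 44 members share an Ensembl name with another, unique names were taken from RefSeq by WormBase gene ID, which matched all 129. A gene counted as marked when a summit lay within 200 bp of it, and its strongest such peak in each list was used. Families were formed by single linkage at 70% identity in global alignments (Biopython 1.88). Uniqueness is the share of 50-base words, over the gene and 200 bp either side, found once on the nuclear chromosomes, both strands counted. The counting was tested on simulated data. No test was made, since there is 1 group, and correlations carry no p.

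The members, gene lists and comparisons were chosen with earlier results of these data known. The text names genes at the 12 strongest peaks, the strongest of each family, every gene of families of up to 6 and those next to the distance limit. Other genes named were chosen after their values were seen, as were the upstream words and the count by uniqueness. Alternatives were distances of 100 and 500 bp, overlap of the peak with the gene, the conservative list, stronger peaks, left-out peaks, each replicate list alone, and members without tRNA, snoRNA or rRNA neighbours within 500 bp. The machinery genes ints-10, ints-12 and lsm-2 were not found under these names.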

Additional observations from a re-analysis of the deposited data

Results flagged for a closer look

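A signal stood in the ranked list outside the thresholded list. The ranked peak at sls-1.9 had a signal of 210 and a score of 1000, above the lowest score of 830 kept in the thresholded list, and was left out of it. Among all 47 ranked peaks that were left out in this way, it was the only one with a summit within 200 bp of a snRNA gene. The files give no reason for its absence, and the role of the repeat there was not tested.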

How the results depend on the processing

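No paired analysis was possible because all samples belong to 1 group. Of 40 alternatives 36 left the result within 1.5 times the reported count, or within the spread between the replicate lists for a median. The count of 33 snRNA genes with a summit was 31 within 100 bp, 34 within 500 bp, 31 by overlap of the peak with the gene, 29 with peaks at or above the list median, 34 with the left-out peaks, 33 in the conservative list, and 23 and 26 with either replicate list alone. Of the 115 genes with no tRNA, snoRNA or rRNA gene within 500 bp, 31 had a summit. The count of 9 spliced leader genes ran from 7 to 10. The results that moved were medians. The median signal at snRNA genes was 1.40 times the median of the list, against 1.15 to 1.23 times in the replicate lists, a move larger than the spread between them of 0.0597. The median summit was 30 bp after the gene start, and 27.5 bp in the replicate 2 list, within the spread between the replicate lists of 3.89 bp. It moved to 36 bp in the conservative list and to 22 bp in the replicate 1 list. The cause was not tested. Read depth is unknown, so no interval can be given for a signal, and a gene with no summit was not detected rather than shown to be unbound. At SL1 genes without a unique word, sls-1.9 included, a signal cannot be assigned to a single copy, as the read length is unknown.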

Other observations

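Counted by the upstream words with at most 1 letter changed, and starting 70 to 40 bases before the gene, 12 of the 33 snRNA genes with a summit in the thresholded list had both (36.4%), against 7 of the 24 in the ranked list alone (29.2%), 15 of the 72 with none (20.8%) and 0.460% of other nuclear genes. The families were not alike. In the C47F8.9 family 18 of 19 genes had the second word and none the first, and in the SL1 genes 10 of 12 and none. In the SmY genes all 10 had the first and none the second, and among the SL2 genes 10 of 18 had both. In the sup-39 family 3 of the 9 genes with a summit had both, against all 4 without one. Which letters are bound by any factor was not tested.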
